A study of Mus musculus with 9 samples.

Results

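The tubulin genes described here are Tuba1a, Tuba1b, Tuba1c and Tuba4a, which encode alpha-tubulin, and Tubb2a, Tubb2b, Tubb3, Tubb4b, Tubb5 and Tubb6, which encode beta-tubulin. They were taken by symbol from GENCODE M21, and all 10 were found among the 29678 genes of the count tables. All 10 also passed the filter on low counts, which left 17967 genes to be tested.

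RNA was sequenced from mouse kidney tissue by poly(A)-selected, paired-end RNA-seq at 24 h after reperfusion. Sham kidneys came from sham operation, bIRI kidneys had bilateral ischemia-reperfusion injury, in which the blood supply of both kidneys is stopped and then restored, and BHBNa_bIRI kidneys were injured likewise in mice pretreated with sodium beta-hydroxybutyrate, the salt of a ketone body that serves as fuel in fasting. The labels listed 3 libraries a group and gave no strain, age, sex, dose, vehicle or number of mice. They did not say whether the libraries of a group came from separate mice, so the p-values below measure the spread between libraries only.

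Alpha- and beta-tubulin pair into dimers, and the dimers polymerise into microtubules, the hollow filaments that carry transport in the cell, form the mitotic spindle and build the core of cilia. In kidney tubule cells microtubules run from the apical to the basal side and carry membrane transporters to their place, and most tubule cells hold a primary cilium. The genes of each family encode nearly the same protein, called isotypes, which differ most in their acidic carboxy-terminal tails, where enzymes add and remove glutamate and tyrosine. Cells also hold tubulin synthesis in check: when free dimers are in excess, a factor that reads the first residues of the nascent chain starts decay of the tubulin mRNA on the ribosome.

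In all 29678 genes the table deposited for bIRI replicate 2 held the average of the other bIRI tables, rounded down, and it was left out, which leaves 3 Sham, 2 bIRI and 3 BHBNa_bIRI libraries. Total counts of these 8 libraries ran from 33477985 to 45909063. The lowest total was that of bIRI replicate 3, in which 24058 genes had counts, against 21364 to 22613 genes in the other libraries used. Both bIRI libraries stood apart from each other in the tubulin genes, and each result of that group is given with this in view. In CPM (counts per 1e6 counts of the TMM-scaled library), bIRI replicate 1 was above bIRI replicate 3 in 9 of the 10 genes, by 1.47-fold in Tubb3 to 5.59-fold in Tuba1c, and below it in Tubb2b, with a ratio of 0.804. The median log2 difference between the pair was 1.31 over the 10 tubulin genes and -0.02 over all genes tested, with quartiles of -0.55 and 0.48. The TMM scaling centres the bulk of the genes, so that the median over all genes lies near 0 by construction.

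On GRCm38, the assembly also called mm10, close relatives lie near each other in 2 places. Tuba1b (ENSMUSG00000023004, chr15:98931425-98934565, minus strand), Tuba1a (ENSMUSG00000072235, chr15:98949837-98953703, minus strand) and Tuba1c (ENSMUSG00000043091, chr15:99029891-99038110, plus strand) lie in a row, and so do Tubb2a (ENSMUSG00000058672, chr13:34074274-34078007, minus strand) and Tubb2b (ENSMUSG00000045136, chr13:34126748-34130466, minus strand). Tuba4a (ENSMUSG00000026202) lies at chr1:75214228-75219865 on the minus strand. Tubb3 (ENSMUSG00000062380) lies at chr8:123411424-123422015 on the plus strand. Tubb4b (ENSMUSG00000036752) lies at chr2:25222160-25224702 on the minus strand. Tubb5 (ENSMUSG00000001525) lies at chr17:35833921-35838306 on the minus strand. All 10 genes, Tubb6 included, are annotated as protein coding, and each value below sums the reads the authors assigned to the whole gene.

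The first codons of the coding sequences are shown because they encode the residues that the decay pathway reads. The start codon is in lower case and the 3 codons after it, which encode arginine, glutamate and then cysteine in alpha- or isoleucine in beta-tubulin, are in capitals. All 10 genes held one of these patterns, spelled with different codons.
Tuba1b: atgCGTGAGTGC
Tuba4a: atgCGCGAGTGC
Tubb4b: atgAGGGAGATC
Tubb5: atgAGGGAAATC
Tubb2a: atgCGCGAGATC
Tubb2b: atgCGAGAGATC

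The ends of 6 coding sequences are shown because the isotypes differ there. Each run holds the last 20 codons and the stop codon, read from the GENCODE M21 coding sequence, with the GAA and GAG codons for glutamate in capitals.
Tuba4a: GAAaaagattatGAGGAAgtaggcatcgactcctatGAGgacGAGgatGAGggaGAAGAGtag
Tubb2a: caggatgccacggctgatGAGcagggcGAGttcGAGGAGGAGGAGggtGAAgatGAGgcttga
Tubb2b: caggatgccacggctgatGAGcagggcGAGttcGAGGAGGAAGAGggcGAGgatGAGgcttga
Tubb3: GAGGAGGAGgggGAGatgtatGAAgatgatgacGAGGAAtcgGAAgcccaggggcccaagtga
Tubb4b: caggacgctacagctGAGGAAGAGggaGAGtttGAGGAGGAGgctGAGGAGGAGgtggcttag
Tubb5: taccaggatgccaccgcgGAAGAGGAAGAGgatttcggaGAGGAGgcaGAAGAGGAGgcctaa
Glutamate codons numbered 10 in Tubb4b, 9 in Tubb5 and 8 in each of the other sequences shown. In Tuba4a the last codon before the stop is itself GAG.

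The likeness of the genes limits how surely a read can be given to 1 of them. The coding sequences of Tuba1a and Tuba1b were 98.3% identical, those of Tuba1b and Tuba1c 97.9%, and those of Tubb2a and Tubb2b 96.5%, whereas Tuba4a was 84.7% identical to Tuba1a. For each gene 1 coding transcript was taken, ranked by a complete coding sequence and annotation tags before length. Its 100-base windows were searched on both strands of all transcripts. Of these windows, 65.9% in Tuba1a, 73.0% in Tuba1b and 53.4% in Tuba1c also occurred in a transcript of another gene, among them each other and predicted gene models. The share was 36.9% in Tubb2a and 27.8% in Tubb2b, shared with each other and with a pseudogene, and 30.6% in Tubb4b, shared with pseudogenes and with Fam166a on the opposite strand. No window of Tubb3, Tubb5 or Tubb6 was shared. In Tuba4a 46.7% of the windows were shared with Stk16, an overlapping gene on the opposite strand that covers 37.3% of the Tuba4a exon bases. How the authors counted reads that map to several places or overlap 2 genes, and whether strand was used, are not given in the sources used here, so the levels of Tuba1a, Tuba1b, Tuba1c, Tuba4a, Tubb2a, Tubb2b and Tubb4b are uncertain to that extent.

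To compare levels between genes, CPM values were divided by the length of the merged exons (RPKM, n = 3, 2 and 3 libraries). In Sham kidneys Tubb4b was the most abundant beta-tubulin mRNA, at 120.5 ± 27.2 RPKM (SD, n = 3), and Tuba4a the most abundant alpha-tubulin mRNA, at 57.1 ± 8.18 RPKM. Tuba1c followed at 40.8 ± 4.75 and Tuba1b at 38.5 ± 2.66 RPKM, and their libraries overlapped. Below them came Tubb2a at 24.0 ± 1.26, Tubb5 at 21.1 ± 1.10, Tuba1a at 11.95 ± 0.29, Tubb2b at 4.52 ± 0.47 and Tubb6 at 3.41 ± 0.41 RPKM, and no 2 neighbours in this stretch of the order overlapped. Tubb3, the isotype known as a marker of neurons, was at 0.0411 ± 0.0600 RPKM.

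In BHBNa_bIRI kidneys the order differed. Tubb4b still led at 281 ± 23.7 RPKM (SD, n = 3), but Tuba1b, at 212 ± 25.2, was above every library of Tuba1c, at 157 ± 23.0 RPKM. Tubb5 lay between 117.6 and 130.0 RPKM. Tubb2a, at 103 ± 14.3, overlapped both with Tubb5 and with Tuba4a, at 91.5 ± 13.8 RPKM. Tuba1a stood at 68.8 ± 4.36, Tubb6 at 36.9 ± 7.27 and Tubb2b at 27.3 ± 2.18 RPKM, and Tubb6 and Tubb2b overlapped. Tubb3 remained the lowest, at 1.57 ± 1.36 RPKM. In the bIRI group Tubb4b was the highest gene in both libraries, at 288 RPKM in replicate 1 and 105 RPKM in replicate 3. The genes behind it were ordered differently in the pair: Tuba1c came next in replicate 1, at 190.4 RPKM, and Tubb2a in replicate 3, at 70.4 RPKM.

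The makeup of each family differed between the groups as well. Tuba4a held 36.9%, 37.7% and 40.7% of the summed alpha-tubulin RPKM in the Sham libraries, 17.6% and 30.8% in bIRI replicates 1 and 3, and 18.7%, 15.9% and 17.2% in the BHBNa_bIRI libraries. Every injured library was thus below every Sham library. Tuba1b held 25.3% to 27.3% in Sham, 31.2% and 28.0% in bIRI, and 39.6% to 40.7% in BHBNa_bIRI, with no overlap between any of the groups. Among the beta-tubulins, Tubb4b held 65.9% to 72.7% in Sham, 48.8% and 40.8% in bIRI, and 48.3% to 49.4% in BHBNa_bIRI. Tubb5 held 10.8% to 13.7% in Sham, 17.5% and 17.8% in bIRI, and 21.1% to 22.3% in BHBNa_bIRI, and its groups did not overlap either. Tubb2b held 2.63% on average in Sham, 4.05% and 11.6% in bIRI and 4.75% in BHBNa_bIRI. Two-sided exact permutation tests were run on the shares of Tuba4a, Tuba1b, Tubb4b and Tubb5, the summed CPM and the ratio of summed beta to summed alpha RPKM, 18 tests over the 3 comparisons. The lowest Benjamini-Hochberg adjusted p was 0.15, and groups of this size cannot give an unadjusted exact p under 0.1. The shares of Tuba1a, Tuba1b, Tuba1c and Tuba4a carry the uncertainty of read assignment given above.

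**Figure D1:**
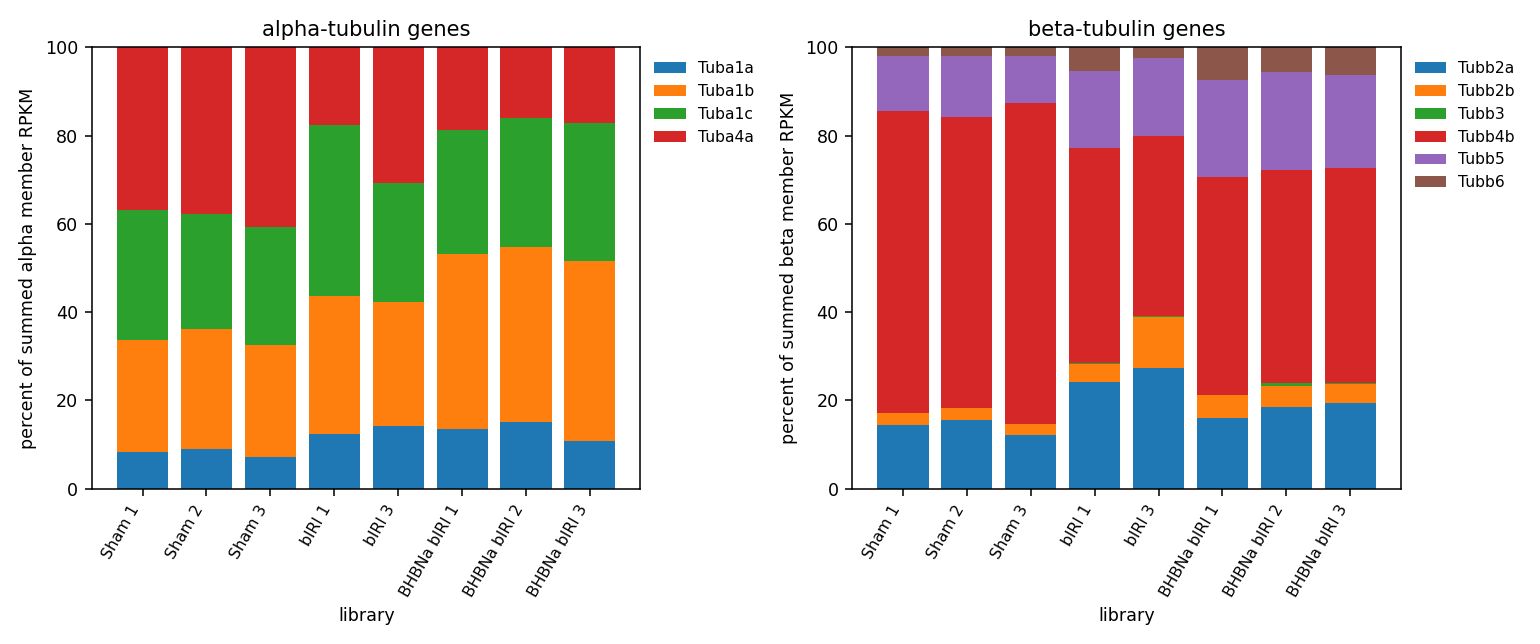
Share of each gene in the summed RPKM of the 4 alpha-tubulin genes (left) and the 6 beta-tubulin genes (right), in percent on the vertical axis, with 1 stacked bar for each of the 8 libraries. Tuba4a takes 36.9% to 40.7% of the alpha bars in Sham and 15.9% to 18.7% in BHBNa_bIRI, and Tubb4b takes 65.9% to 72.7% and 48.3% to 49.4% of the beta bars.

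Injury without the ketone was compared with sham operation first. In this bulk tissue a change in RNA per cell and a change in the number of cells of a type cannot be told apart. Of the 10 tubulin genes, 6 were called higher in bIRI than in Sham by edgeR's quasi-likelihood test (Benjamini-Hochberg adjusted p under 0.05 over all genes tested) and 0 were called lower. Of all genes tested, 18.9% were called higher, 16.2% lower and 35.1% in either direction. The 6 genes were Tubb2b, Tubb2a, Tubb5, Tubb6, Tuba1a and Tubb3. The log2 fold change was above 0 in 10 of 10 tubulin genes, with a median of 1.78 against 0.09 over all genes tested. In 6 of the 10 genes both bIRI libraries lay above every Sham library, as in 28.7% of all genes tested.

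Tubb2b, a beta-tubulin best known from developing neurons, was at 10.3, 9.32 and 11.5 CPM in the Sham libraries and at 54.9 and 68.3 CPM in bIRI replicates 1 and 3. Both injured libraries were far above the Sham libraries and close to each other. The log2 fold change was 2.57 ± 0.17 (SE; edgeR adjusted p = 4.92e-05), a 5.94-fold rise. Its near twin Tubb2a was at 38.7, 36.7 and 40.7 CPM in Sham and at 231 and 113 CPM in bIRI. The groups did not overlap, although replicate 1 was 2.04-fold above replicate 3, and the log2 fold change was 2.15 ± 0.27 (SE; edgeR adjusted p = 0.000512). Without bIRI replicate 1 it was 1.48.

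Tubb5, a beta-tubulin made by most dividing cells, was at 69.4, 67.2 and 74.4 CPM in Sham and at 343 and 152 CPM in bIRI. It rose by a log2 fold change of 1.82 ± 0.29 (SE; edgeR adjusted p = 0.00169), and the groups did not overlap. Without bIRI replicate 1 the log2 fold change was 1.04. Tubb6 (ENSMUSG00000001473, chr18:67390717-67402749, plus strand), a beta-tubulin isotype that is low in most adult tissues, was at 8.20, 7.37 and 9.38 CPM in Sham and at 77.7 and 15.0 CPM in bIRI. Both bIRI values were above Sham, but replicate 1 was 5.17-fold above replicate 3. The log2 fold change was 2.48 ± 0.52 (SE; edgeR adjusted p = 0.00583), and without bIRI replicate 1 it was 0.78.

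Tuba1a, the main alpha-tubulin of developing neurons, was the single alpha gene called. It was at 21.99, 21.67 and 20.96 CPM in Sham and at 111 and 32.5 CPM in bIRI. The Sham libraries lay close together and both bIRI libraries were above them, with a log2 fold change of 1.73 ± 0.39 (SE; edgeR adjusted p = 0.00788). Without bIRI replicate 1 the log2 fold change was 0.52. Tubb3 had 1, 9 and 0 counts in the Sham libraries and 38 and 26 counts in bIRI. The highest Sham value, 0.206 CPM, was below the lower bIRI value of 0.567 CPM. The fitted log2 fold change of 3.09 ± 1.03 (SE; edgeR adjusted p = 0.0419) rests on these few counts and on the prior count of the fit. Without Sham replicate 2, the Sham library with 9 counts, it was 5.48, and with the replicate number as a block 4.54. The Tubb3 call was lost without either bIRI library, Sham replicate 1 or 3, or BHBNa_bIRI replicate 1 or 3, with edgeR adjusted p from 0.052 to 0.127.

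For the 4 genes not called, bIRI replicate 3 lay within or below the Sham range in TMM-scaled CPM. The TMM factor of that library was 1.371, against 0.89 to 0.954 in Sham, so its place relative to Sham depended on the scaling. Tuba1b was at 69.5, 69.2 and 78.0 CPM in Sham, while bIRI replicate 1 stood at 288 CPM and its companion, replicate 3, at 66.1 CPM. Its log2 fold change of 1.29 ± 0.46 (SE; edgeR adjusted p = 0.0522) therefore averaged 1 library that was high and 1 that was below every Sham library. Tuba1c showed the same split, at 99.2, 80.7 and 99.9 CPM in Sham and 435 and 77.9 CPM in bIRI, with a log2 fold change of 1.46 ± 0.52 (SE; edgeR adjusted p = 0.0546). Tubb4b, an isotype that cilia also use, was at 238, 203 and 314 CPM in Sham and at 602 and 219 CPM in bIRI, with a log2 fold change of 0.71 ± 0.37 (SE; edgeR adjusted p = 0.166).

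Tuba4a, whose coding sequence ends in a glutamate codon, was at 200.2, 188 and 246 CPM in Sham and at 321 and 144 CPM in bIRI. Of the bIRI libraries, 1 was above and 1 below every Sham library, and the log2 fold change was 0.14 ± 0.32 (SE; edgeR adjusted p = 0.772). Without bIRI replicate 1 its log2 fold change was -0.63 (edgeR adjusted p = 0.0397), a call in the lower direction. Without bIRI replicate 3 it was 0.60 (edgeR adjusted p = 0.0447), a call in the higher direction, and Tuba1b, Tuba1c and Tubb4b were then called as well, with log2 fold changes of 1.996, 2.224 and 1.261. The number of tubulin genes called higher was 5 without bIRI replicate 1, where 22.7% of all genes tested were called higher, and 9 without bIRI replicate 3, where 18.5% were. In each of these fits the lone bIRI library is assumed to vary like the other groups.

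**Figure D2:**
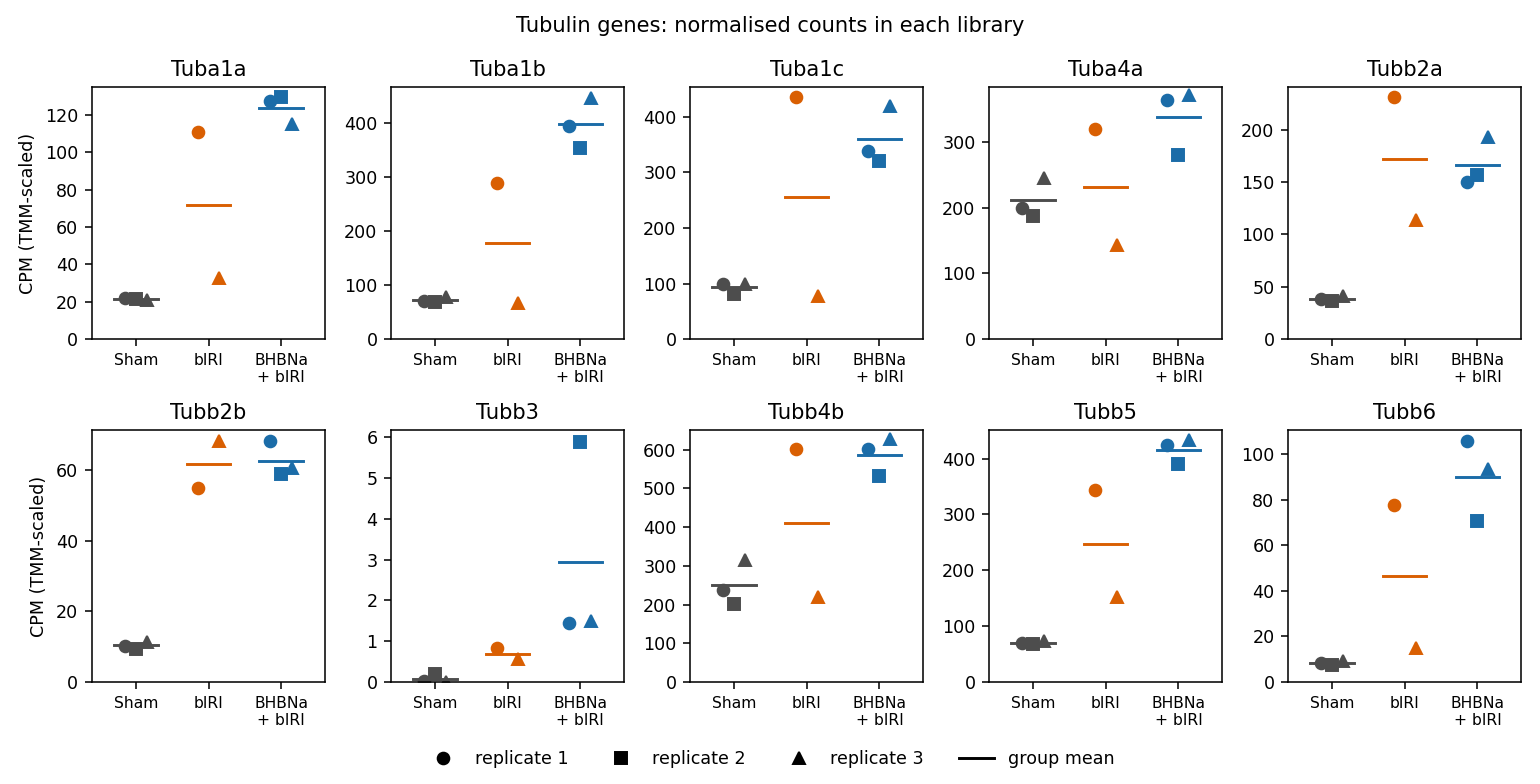
TMM-scaled CPM (linear vertical axis from 0, its own scale in each panel) of the 10 tubulin genes in Sham, bIRI and BHBNa_bIRI libraries. Each symbol is 1 library, shaped by replicate number, and the lines are group means; bIRI replicate 1 (circle) is above replicate 3 (triangle) in every panel except Tubb2b, while the BHBNa_bIRI libraries lie together in most panels and are spread in Tubb3, from 1.45 to 5.88 CPM.

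After pretreatment with beta-hydroxybutyrate and injury, 9 of the 10 tubulin genes were called higher than in Sham and 0 lower, where 21.3% of all genes tested were called higher and 22.2% lower. Tuba4a was the gene not called. All 3 BHBNa_bIRI libraries lay above all 3 Sham libraries in 10 of 10 tubulin genes, as they did in 32.6% of all genes tested, while the reverse held for 0 tubulin genes and 32.2% of all genes tested. The median log2 fold change was 2.49 against 0.04 over all genes tested. This comparison does not use the bIRI libraries, except for the estimate of spread that all groups share.

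Tubb6 had a log2 fold change of 3.43 ± 0.50 (SE; edgeR adjusted p = 0.000702), at 105.5, 70.7 and 93.5 CPM in BHBNa_bIRI against 7.37 to 9.38 CPM in Sham, a 10.8-fold rise. Tubb5 was at 424, 391 and 433 CPM, a tight group with a log2 fold change of 2.56 ± 0.28 (SE; edgeR adjusted p = 0.000147). Tubb2b was at 68.3, 58.8 and 60.6 CPM, with a log2 fold change of 2.59 ± 0.17 (SE; edgeR adjusted p = 1.46e-05). These 3 beta genes were thus 5.92-fold to 10.8-fold above Sham. Tubb2a was at 150.0, 156 and 193 CPM, with a log2 fold change of 2.10 ± 0.26 (SE; edgeR adjusted p = 0.000262).

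Among the alpha genes, Tuba1a was at 127.5, 129.5 and 115 CPM, with a log2 fold change of 2.53 ± 0.37 (SE; edgeR adjusted p = 0.000674). Tuba1b was at 393, 353 and 447 CPM, with a log2 fold change of 2.46 ± 0.44 (SE; edgeR adjusted p = 0.00191). Tuba1c was at 339, 319.7 and 419 CPM, with a log2 fold change of 1.95 ± 0.49 (SE; edgeR adjusted p = 0.0109). In these 3 alpha genes the lowest BHBNa_bIRI library was well above the highest Sham library.

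The genes most abundant in Sham had the smallest log2 fold changes. Tubb4b was at 600.4, 532 and 629 CPM, a 2.34-fold rise with a log2 fold change of 1.22 ± 0.34 (SE; edgeR adjusted p = 0.0168). The Tubb4b call was lost without Sham replicate 1, Sham replicate 2 or BHBNa_bIRI replicate 3, with edgeR adjusted p of 0.0658, 0.0749 and 0.0532. Tuba4a was at 364, 279.8 and 372 CPM, which did not overlap with Sham, and its log2 fold change of 0.68 ± 0.29 (SE; edgeR adjusted p = 0.0792) did not pass the threshold. Tuba4a passed it without bIRI replicate 1 or 3, with log2 fold changes of 0.66 and 0.68 (edgeR adjusted p = 0.00358 and 0.00327). At the other end, Tubb3 had 62, 273 and 55 counts, or 1.45, 5.88 and 1.49 CPM, and a log2 fold change of 5.16 ± 0.98 (SE; edgeR adjusted p = 0.00276) against Sham libraries of at most 9 counts. BHBNa_bIRI replicate 2 held most of its counts. The log2 fold change of Tubb3 was 4.16 without that library and 7.56 without Sham replicate 2. The markers of nerve and Schwann cells, a list of 9 genes, were also highest in that library, with a summed level of 10.8 CPM against 1.60 to 2.44 CPM in Sham, 2.17 and 5.04 CPM in bIRI and 2.56 and 3.02 CPM in the other BHBNa_bIRI libraries. Their part in the Tubb3 level was not tested. Of that list, 1 of 7 genes tested was called higher and 0 lower. It was Prph, a neuronal intermediate filament, at 0.373, 4.39 and 0.543 CPM in BHBNa_bIRI, and Snap25, a protein of nerve endings, had no counts in 5 of the 8 libraries.

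**Figure D3:**
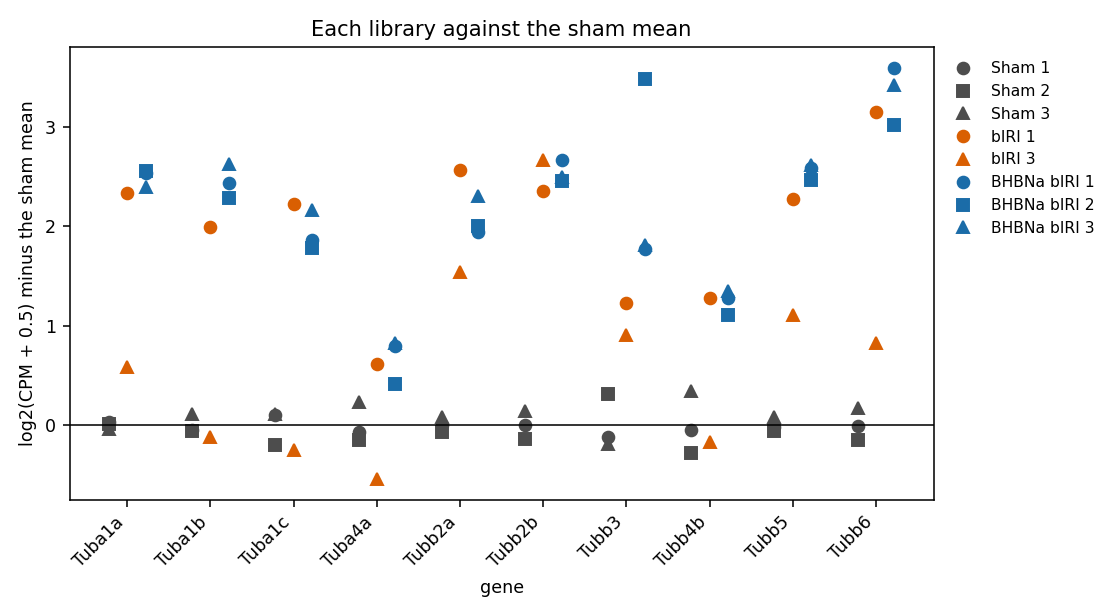
Level of each tubulin gene in each library as log2(CPM + 0.5) minus the mean of the Sham libraries (vertical axis), with genes on the horizontal axis and 1 symbol per library. The BHBNa_bIRI libraries lie above the Sham libraries in all 10 genes, and bIRI replicate 3 lies below every Sham library in Tuba1b, Tuba1c and Tuba4a and within their range in Tubb4b.

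The pretreatment is addressed by the comparison of BHBNa_bIRI with bIRI, which shares its libraries with both comparisons above. The labels gave no vehicle, so the ketone cannot be told apart here from the sodium of its salt or from the dosing. By edgeR's quasi-likelihood test 0 of the 10 tubulin genes were called in either direction, where 4.88% of all genes tested were called higher and 8.65% lower. At an unadjusted p under 0.05 the count was 3, all higher, where 14.9% of all genes tested were higher and 19.6% lower at that p. DESeq2 called 1 higher, where it called 10.9% of all genes tested higher, so that count is at the background. The log2 fold change was above 0 in 9 of 10 genes, with a median of 0.65 against -0.05 over all genes tested. All 3 BHBNa_bIRI libraries lay above both bIRI libraries in 4 genes, as in 22.2% of all genes tested.

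The 4 genes without overlap were Tuba1a, Tuba1b, Tubb3 and Tubb5. Tuba1b had a log2 fold change of 1.17 ± 0.48 (SE; edgeR adjusted p = 0.119), from 288 and 66.1 CPM in bIRI to 353 to 447 CPM in BHBNa_bIRI. Tubb5 had a log2 fold change of 0.75 ± 0.30 (SE; edgeR adjusted p = 0.114), and Tuba1a one of 0.79 ± 0.40 (SE; edgeR adjusted p = 0.187). Tubb3 had a log2 fold change of 2.07 ± 0.92 (SE; edgeR adjusted p = 0.144), which was 1.07 without BHBNa_bIRI replicate 2 and 0.96 with the replicate number as a block. None of these differences passed the threshold, which does not show that the groups were alike.

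At the other end Tubb2a had a log2 fold change of -0.05 ± 0.27 (SE; edgeR adjusted p = 0.917), and that of Tubb2b was 0.02 ± 0.17 (SE; edgeR adjusted p = 0.942). The BHBNa_bIRI libraries of Tubb2a, at 150.0 to 193 CPM, lay between the bIRI libraries at 113 and 231 CPM. Those of Tubb2b overlapped the bIRI range of 54.9 to 68.3 CPM. Tuba1c, Tuba4a, Tubb4b and Tubb6 lay between, with log2 fold changes of 0.49, 0.55, 0.52 and 0.96. In Tuba1c, bIRI replicate 1 at 435 CPM was above all 3 BHBNa_bIRI libraries.

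This comparison depended on which bIRI library stood for the group. Against bIRI replicate 3 alone, 8 tubulin genes were called higher: all but Tubb2b and Tubb3, with log2 fold changes from 0.61 in Tubb2a to 2.64 in Tuba1b. In that fit 21.4% of all genes tested were called higher. Against bIRI replicate 1 alone the log2 fold changes of Tuba1a, Tuba1b, Tubb5 and Tubb6 were 0.16, 0.46, 0.27 and 0.21. Summed over the 10 genes, bIRI replicate 1 held 2464 CPM and bIRI replicate 3 held 889 CPM, while the Sham libraries held 683 to 894 CPM and the BHBNa_bIRI libraries 2297 to 2763 CPM. In this TMM-scaled sum bIRI replicate 1 was therefore within the range of the BHBNa_bIRI libraries and bIRI replicate 3 within that of the Sham libraries. The place of bIRI replicate 3 depended on the scaling, as its TMM factor was 1.371 against 0.89 to 0.954 in Sham. As a share of unscaled counts, the 10 genes took 0.122% in bIRI replicate 3 and 0.0652% to 0.0796% in Sham. They took 0.273% in bIRI replicate 1 and 0.229% to 0.250% in BHBNa_bIRI. The counts over all genes in this comparison also moved with the libraries, from 8381 genes called without bIRI replicate 1 to 794 without bIRI replicate 3, against 2431 with both. Leaving out 1 library of the other groups removed all or nearly all calls for some libraries and not for others. The count was 0 without Sham replicate 1, Sham replicate 2 or BHBNa_bIRI replicate 1, and 1 without BHBNa_bIRI replicate 3. It was 1026 without Sham replicate 3 and 1154 without BHBNa_bIRI replicate 2. With offsets for length and GC content 2 genes were called. In all, 8 of the 19 other settings left 0 to 2 genes called in BHBNa_bIRI against bIRI, so every call in this comparison depends on the setting.

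**Figure D4:**
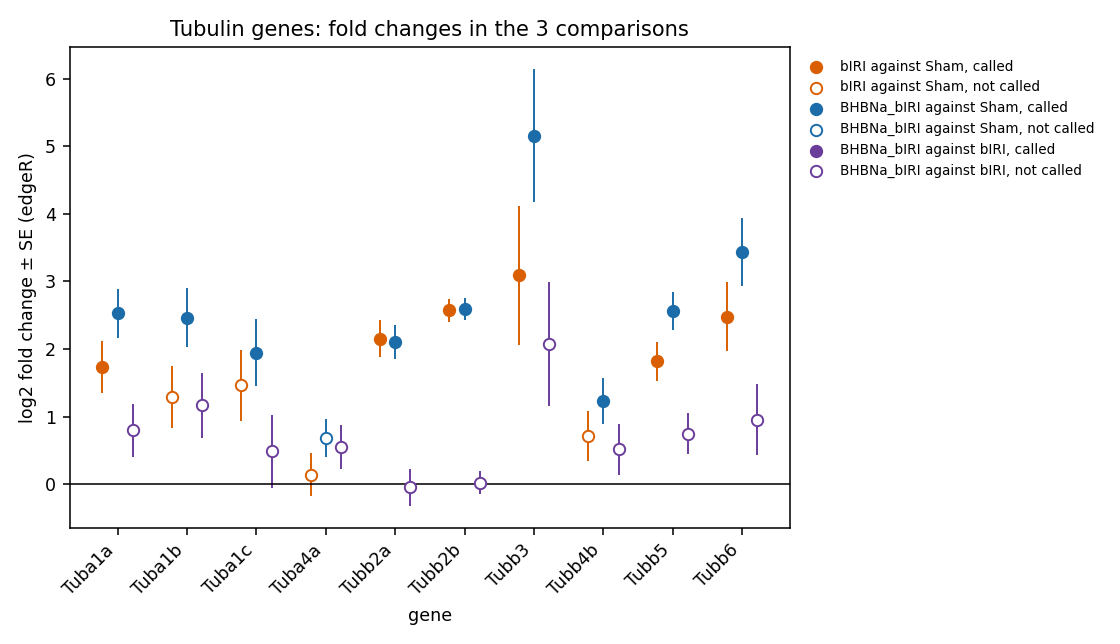
Log2 fold change of each tubulin gene in the 3 comparisons (vertical axis, point and SE bar from edgeR), with filled points for an adjusted p under 0.05. In the comparison of BHBNa_bIRI with bIRI all points are open and lie from -0.05 in Tubb2a to 2.07 in Tubb3; against Sham every point is above 0.

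Some sets of markers differed between the same libraries. Their calls can be read against all genes tested, of which 18.9% were called higher and 16.2% lower in bIRI against Sham. These shares were 4.88% and 8.65% in BHBNa_bIRI against bIRI, and 21.3% and 22.2% in BHBNa_bIRI against Sham. The 4 smooth muscle markers summed to 80.4 to 130 CPM in Sham, 461 CPM in bIRI replicate 1, 112 CPM in bIRI replicate 3 and 426 to 490 CPM in BHBNa_bIRI. In this TMM-scaled sum bIRI replicate 3 was again within the Sham range, a place that depended on the scaling. Of these 4 genes, 2 were called higher in bIRI than in Sham, 1 in BHBNa_bIRI than in bIRI and 4 in BHBNa_bIRI than in Sham. The call against bIRI, that of Cnn1, was made in 10 of 19 other settings. Acta2, smooth muscle actin, differed between bIRI replicates 1 and 3, at 404 against 74.3 CPM. The 5 markers of thick ascending limb and distal tubule went the other way, with 1684 CPM in bIRI replicate 1, 4584 CPM in bIRI replicate 3, 2164 to 3690 CPM in Sham and 356 to 924 CPM in BHBNa_bIRI. Of these 5 genes 1 was called lower in bIRI than in Sham, 3 in BHBNa_bIRI than in bIRI and 5 in BHBNa_bIRI than in Sham. The calls against bIRI, those of Umod, Slc12a1 and Calb1, were made in 8, 8 and 12 of 19 other settings. The 5 collecting duct markers summed to 427 and 959 CPM in bIRI replicates 1 and 3, against 551 to 666 CPM in Sham and 635 to 705.5 CPM in BHBNa_bIRI. The sum hid opposite changes: in BHBNa_bIRI against Sham Aqp3, Scnn1g and Slc4a1 were called lower and Aqp2 higher. The log2 fold changes were -1.30, -1.25, -4.23 and 1.04. In bIRI against Sham 1 of the 5 was called higher and 0 lower, and in BHBNa_bIRI against bIRI 0 were called. Podocyte, endothelial and fibroblast and pericyte markers were higher in bIRI replicate 1 than in replicate 3, at 600.2 against 301.5 CPM, 541 against 300.3 CPM and 422 against 246.5 CPM. Both bIRI libraries thus differed in markers of several cell types. Summed, the 8 markers of dividing cells did not follow that split, at 60.7 to 75.8 CPM in Sham, 137 and 116 CPM in bIRI replicates 1 and 3, and 134.5 to 169 CPM in BHBNa_bIRI. This sum too hid opposite changes: in BHBNa_bIRI against bIRI Mki67 was called lower and Mcm5 higher. Their log2 fold changes were -2.69 and 0.81, each call was made in 8 of 19 other settings, and the other 6 genes were not called. The 6 markers of injured tubule, summed, were at 396 to 469 CPM in Sham, 24660 and 15220 CPM in bIRI and 12610 to 13970 CPM in BHBNa_bIRI. The 8 proximal tubule markers fell from a sum of 10330 to 11790 CPM in Sham to 1522 to 1854 CPM in the injured libraries, with 7 of 8 called lower in bIRI and in BHBNa_bIRI against Sham. The 5 neutrophil markers summed to 0.799 to 1.65 CPM in Sham, 10.2 and 4.34 CPM in bIRI and 35.5 to 60.3 CPM in BHBNa_bIRI. None of the markers was at 0 in all 8 libraries, and the part of these cell types in the tubulin levels was not tested. Mitochondrially encoded genes took 11.2% to 13.3% of the Sham counts, 15.9% of those of each bIRI library and 24.0% to 30.3% after the ketone, and scaling without them and the 20 most abundant genes left the counts of tubulin genes called at 6, 0 and 9.

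Over the 8 libraries the tubulin genes followed each other to different degrees. Of the 45 pairs of members, the Pearson correlation of log2(CPM + 0.5) was highest for Tuba1a with Tubb6, at 0.991, and lowest for Tuba4a with Tubb2b, at 0.424. Tuba4a correlated best with Tubb4b, at 0.939, the other gene that was abundant in Sham. The near twins Tubb2a and Tubb2b correlated at 0.944. These values describe 8 libraries that share the same group differences and the same scaling, and Tuba1a, Tuba1b and Tuba1c may also share reads.

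The genes most like Tuba1b, the most abundant alpha member over the 8 libraries, were Ran, the GTPase of nuclear transport and spindle assembly, with a correlation of 0.998, then Crct1, Myd88, Ddx39 and Plpp2, with correlations of 0.995 to 0.997 among 10572 genes compared. Ran was at 141 to 151 CPM in Sham, 300.2 and 130.1 CPM in bIRI replicates 1 and 3 and 317 to 351 CPM in BHBNa_bIRI. It was picked for its likeness over these same libraries, so its split of the bIRI libraries follows from that choice. Myd88, the adaptor of Toll-like receptors, was at 20.5 to 22.8 CPM in Sham, 49.0 and 19.9 CPM in bIRI and 48.6 to 58.6 CPM in BHBNa_bIRI. The genes most like Tubb4b, the most abundant beta member, were Serpini1, with a correlation of 0.993, Arl2bp, which encodes a binding partner of the small GTPase ARL2, with 0.992, and Bin3, Ercc8 and Ak6, with 0.985 to 0.987. Arl2bp moved over a small range, from 59.5 to 68.9 CPM in Sham to 81.8 to 83.7 CPM in BHBNa_bIRI.

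Promoter windows from RefSeq (GRCm38.p6, 250 bases before to 50 after the gene start) were found for 8 of the 10 genes, all but Tubb2b and Tubb6. The 250 bases before the start are shown for Tubb4b (chr2:25224703-25224952, minus strand), the most abundant beta member, and for Tubb5 (chr17:35838302-35838551, minus strand), which rose in both injured groups against Sham. CCAAT, the core of the site of the factor NF-Y, is in capitals.
Tubb4b: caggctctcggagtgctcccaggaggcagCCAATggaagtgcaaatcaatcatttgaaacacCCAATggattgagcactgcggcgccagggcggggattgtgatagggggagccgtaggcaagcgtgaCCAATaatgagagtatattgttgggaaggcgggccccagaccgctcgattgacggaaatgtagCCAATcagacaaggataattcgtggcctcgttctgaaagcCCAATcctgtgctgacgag
Tubb5: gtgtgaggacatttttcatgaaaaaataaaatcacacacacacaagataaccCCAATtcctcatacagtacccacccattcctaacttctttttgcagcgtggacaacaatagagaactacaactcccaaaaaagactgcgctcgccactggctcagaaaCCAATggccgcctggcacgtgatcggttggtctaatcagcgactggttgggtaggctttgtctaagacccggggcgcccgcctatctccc
Searched on both strands of the 300-base windows, CCAAT occurred in 5 of the 8 tubulin promoters and in 37.4% of 32851 promoters of the same length. Tubb4b held 5 matches and Tubb5 held 2, and 11.7% of all promoters held 2 or more. GGGCGG, a GC box, occurred in 7 of the 8 and in 35.7% of all promoters. TATAAA occurred in 2, Tubb2a and Tubb4b (13.6% of all), TTTGAA in 1, Tubb4b (17.9% of all), and TTCGAA and GAANNTTC, the core of the heat shock element, in 0 (1.6% and 7.9% of all). Each motif was counted by itself, so that matches of different motifs may overlap. A match describes the letters of the window and is no evidence of binding.

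The machinery around tubulin was read from 12 lists of related genes, of which 163 genes were tested. In bIRI against Sham 38 of them were called higher and 14 lower, in BHBNa_bIRI against bIRI 14 higher and 11 lower, and in BHBNa_bIRI against Sham 46 higher and 23 lower. These counts, and those of the single lists below, can be read against the shares of all genes tested. In bIRI against Sham 18.9% of all genes tested were called higher and 16.2% lower. The shares were 4.88% and 8.65% in BHBNa_bIRI against bIRI, and 21.3% and 22.2% in BHBNa_bIRI against Sham. All 25 calls in BHBNa_bIRI against bIRI rest on the setting: each was made in 5 to 11 of the 19 other settings, with a median of 8, and none in every setting. Calls against Sham were made in every setting in which the gene was tested for 22 of 52 in bIRI and 39 of 69 in BHBNa_bIRI. The lists did not move as a block. Their median log2 fold changes ran from -0.34 in the autoregulation list to 1.60 in the mitotic spindle list in bIRI against Sham, and from -0.45 in the cilium list to 1.39 in the mitotic spindle list in BHBNa_bIRI against Sham.

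Of the other tubulins, 6 of 10 listed genes were tested. In BHBNa_bIRI against Sham 2 were called higher, Tubb4a, a beta-tubulin of brain, at 1.66 to 1.74 CPM against 0.320 to 0.749 CPM in Sham, and Tubg1, the gamma-tubulin that starts microtubules, with a log2 fold change of 0.74 ± 0.18 (SE; edgeR adjusted p = 0.00864). New tubulin chains are passed by prefoldin to the cytosolic chaperonin. In BHBNa_bIRI against Sham 6 of the 14 genes of these complexes were called higher and 0 lower, and the leading 4 were all prefoldin subunits: Pfdn6, Pfdn1, Pfdn4 and Pfdn5. Pfdn6 was at 21.02, 24.6 and 30.1 CPM in Sham, at 36.1 and 23.6 CPM in bIRI and at 74.3, 53.1 and 72.3 CPM in BHBNa_bIRI. It was also called against bIRI, with a log2 fold change of 1.16 ± 0.25 (SE; edgeR adjusted p = 0.0303), together with Pfdn5 and Pfdn1, and each of these 3 calls was made in 10 of 19 other settings. In bIRI against Sham 1 of the 14 was called higher, Vbp1, which encodes a prefoldin subunit, with a log2 fold change of 0.77 and a call in 13 of 19 other settings.

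Folded chains are joined into dimers by the tubulin folding cofactors, of which 7 genes were tested. In BHBNa_bIRI against Sham Tbcb, Arl2 and Tbcc were called higher and Tbcel lower, and the calls of Arl2 and Tbcc were made in 12 and 10 of 19 other settings. Tbcb, a cofactor for alpha-tubulin, was at 53.5, 54.8 and 71.8 CPM in Sham, at 101 and 36.3 CPM in bIRI and at 165, 128 and 176 CPM in BHBNa_bIRI, and so showed the split of the bIRI libraries too. Tbcel, a cofactor-like protein that breaks dimers down, was called lower in every comparison, with log2 fold changes of -0.87 in bIRI against Sham, -0.78 in BHBNa_bIRI against bIRI and -1.66 in BHBNa_bIRI against Sham. The Tbcel calls were made in 18, 8 and 19 of 19 other settings. It was at 65.1 to 71.8 CPM in Sham, 31.8 and 43.6 CPM in bIRI and 17.0 to 24.5 CPM in BHBNa_bIRI, with no overlap between the groups.

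For the decay pathway that reads the first codons shown above, 4 genes were tested. Ttc5, which recognises the nascent tubulin chain, was not called in any comparison and was at 23.7 to 27.2 CPM in Sham, 23.1 and 20.2 CPM in bIRI and 21.6 to 24.9 CPM in BHBNa_bIRI. Scaper, the adaptor between Ttc5 and the deadenylase, rose in bIRI against Sham with a log2 fold change of 0.79 ± 0.27 (SE; edgeR adjusted p = 0.0462). Cnot11, the subunit of the CCR4-NOT deadenylase that Scaper binds, fell in bIRI against Sham with a log2 fold change of -0.53 and in BHBNa_bIRI against Sham with one of -0.69 (edgeR adjusted p = 0.0351 and 0.00502). In bIRI against Sham the calls of Scaper and Cnot11 were made in 7 of 19 other settings each. Cnot1, the scaffold of that complex, fell in BHBNa_bIRI against Sham with a log2 fold change of -1.05 ± 0.21 (SE; edgeR adjusted p = 0.00389), at 66.2 to 109 CPM in Sham and 38.7 to 47.1 CPM in BHBNa_bIRI.

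Of the enzymes that modify tubulin tails and lysines, 21 were tested. In bIRI against Sham 2 were called higher and 2 lower, below the 18.9% and 16.2% of all genes tested. Among them was Ttll7, a polyglutamylase that acts on beta-tubulin tails, at 0.795 to 1.64 CPM in Sham and 8.84 and 4.36 CPM in bIRI. Another was Sirt2, a deacetylase of alpha-tubulin, with a log2 fold change of -0.79. In BHBNa_bIRI against Sham 5 were called higher and 3 lower, where 21.3% and 22.2% of all genes tested were. Svbp, the partner of the enzymes that remove the final tyrosine, was at 9.94, 12.4 and 15.9 CPM in Sham and at 38.0, 28.5 and 36.5 CPM in BHBNa_bIRI, with bIRI replicate 1 above and bIRI replicate 3 below every Sham library, and it was called higher against both other groups, in 8 of 19 other settings against bIRI. Agbl3, a carboxypeptidase that shortens glutamate chains, was called lower against both, likewise in 8 of 19 against bIRI, at 2.80 to 3.94 CPM in BHBNa_bIRI against 8.94 to 11.8 CPM in Sham.

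Of 14 proteins tested that bind along the microtubule, 6 were called higher and 2 lower in bIRI against Sham. Dclk1, a doublecortin-like kinase, was at 0.103 to 0.228 CPM in Sham and at 3.59 and 5.17 CPM in bIRI, with a log2 fold change of 4.74 ± 0.44 (SE; edgeR adjusted p = 0.000129). Map1b, known from growing axons, was at 1.76 to 2.04 CPM in Sham and 11.9 and 17.6 CPM in bIRI, and Mapt, which encodes tau, fell with a log2 fold change of -1.14 ± 0.24 (SE; edgeR adjusted p = 0.00591). Unlike most tubulin genes, Dclk1 and Map1b were higher in bIRI replicate 3 than in replicate 1. Of 12 genes tested that shorten or cut microtubules, 4 were called higher and 1 lower in bIRI against Sham, led by Kif2a, a depolymerising kinesin, at 7.63 to 8.84 CPM in Sham and 21.2 and 28.4 CPM in bIRI. Kif2a was called lower in BHBNa_bIRI than in bIRI, with a log2 fold change of -0.71 and a call in 5 of 19 other settings, while Stmn2, a stathmin that binds tubulin dimers, was called higher there, at 3.80 to 6.59 CPM against 1.36 and 0.654 CPM, with a call in 9 of 19.

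The mitotic spindle list had 8 of 15 genes called higher and 0 lower in bIRI against Sham and 7 of 15 called higher in BHBNa_bIRI against Sham. Kif23, a kinesin of the midbody, was at 0.439 to 0.820 CPM in Sham, 3.57 and 19.98 CPM in bIRI replicates 1 and 3 and 2.85 to 4.55 CPM in BHBNa_bIRI. Summed over the 15 genes the list was at 13.7 to 15.4 CPM in Sham, 28.3 CPM in bIRI replicate 1, 59.5 CPM in bIRI replicate 3 and 25.3 to 36.2 CPM in BHBNa_bIRI. This sum was thus highest in the bIRI library with the lower tubulin level, and Kif23 alone made up 3.57 and 19.98 CPM of it in bIRI replicates 1 and 3. Of 17 genes tested for microtubule nucleation, 2 were called higher in bIRI against Sham, Haus3 and Haus6 of the augmin complex, where 18.9% of all genes tested were. In BHBNa_bIRI against bIRI 2 were called lower, Tubgcp4 and Haus3, where 8.65% of all genes tested were. These calls against bIRI were made in 8 and 7 of 19 other settings. Of 8 plus-end proteins, 4 were called higher and 1 lower in bIRI against Sham. Mapre1, which encodes the end-binding protein EB1, was at 67.4 to 72.8 CPM in Sham, 136 and 86.2 CPM in bIRI and 93.5 to 112 CPM in BHBNa_bIRI, and its call in bIRI against Sham was made in 10 of 19 other settings.

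Of the 28 motors that run on microtubules, 7 were called higher and 3 lower in bIRI against Sham, near the 18.9% and 16.2% of all genes tested, and their median log2 fold change was 0.19. Kif5b, the heavy chain of conventional kinesin, was at 37.0 to 48.1 CPM in Sham, 133 and 119 CPM in bIRI and 51.1 to 77.8 CPM in BHBNa_bIRI, and was called higher in bIRI than in Sham and lower in BHBNa_bIRI than in bIRI, the latter in 11 of 19 other settings. Its light chain Klc4 fell in bIRI against Sham, with a log2 fold change of -1.34 ± 0.16 (SE; edgeR adjusted p = 0.000377). Dynll1, a light chain of dynein, was at 43.4 to 74.9 CPM in Sham, 149.9 and 86.1 CPM in bIRI and 248 to 374 CPM in BHBNa_bIRI, with a log2 fold change of 1.48 ± 0.34 (SE; edgeR adjusted p = 0.0327) against bIRI, a call made in 10 of 19 other settings. Among 17 genes of transport within cilia, 2 were called higher and 3 lower in bIRI against Sham, where 18.9% and 16.2% of all genes tested were. In BHBNa_bIRI against Sham 2 were called higher and 6 lower, where 21.3% and 22.2% of all genes tested were. Ift122, a subunit that returns cargo from the ciliary tip, was at 53.7 to 60.1 CPM in Sham, 11.5 and 28.8 CPM in bIRI and 11.2 to 13.4 CPM in BHBNa_bIRI, with log2 fold changes of -1.49 and -2.20 against Sham (edgeR adjusted p = 0.00766 and 0.000437).

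**Figure D5:**
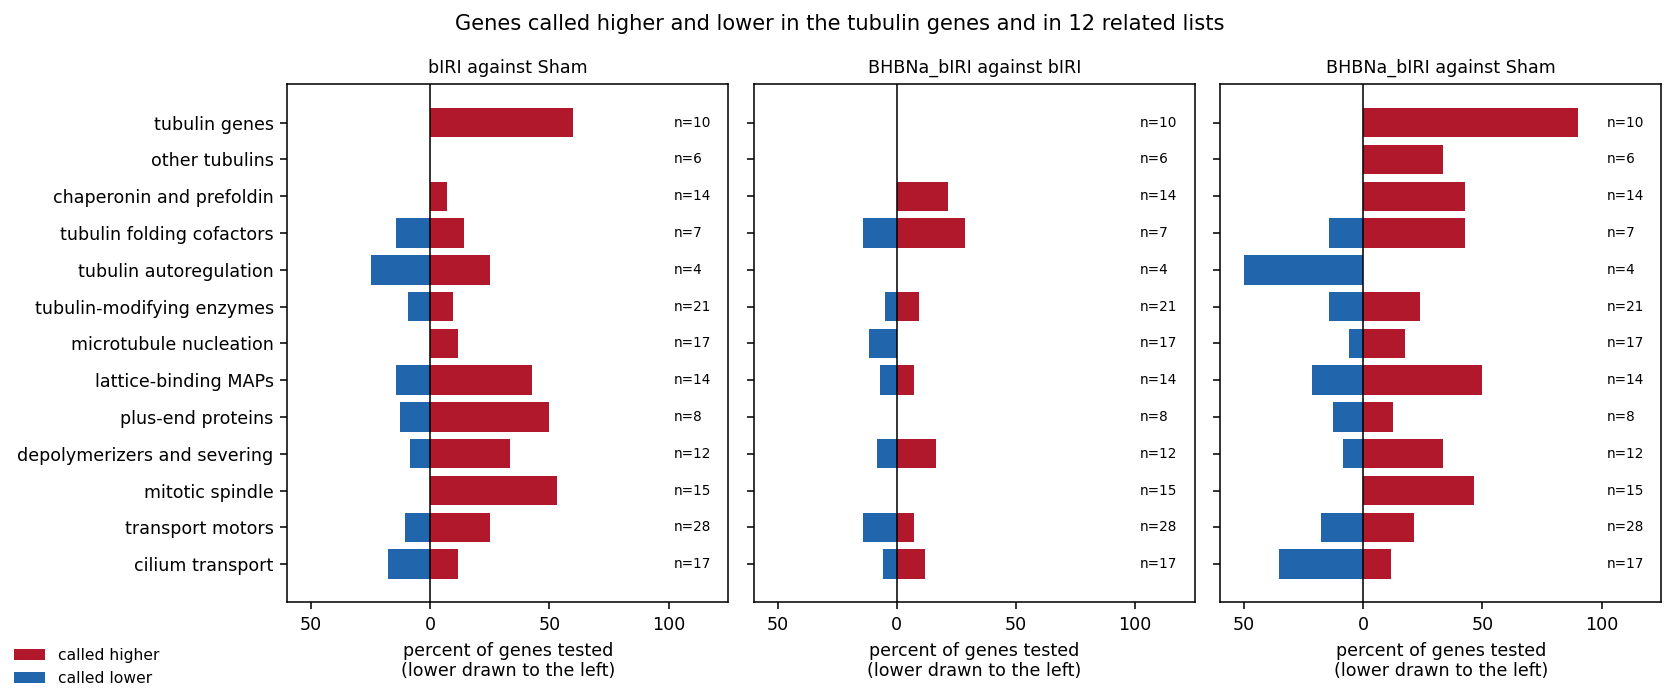
Percent of the genes tested in each list (n at the right) that were called higher (to the right of 0) or lower (to the left) in the 3 comparisons. The tubulin genes have 6, 0 and 9 of 10 called higher and 0 lower, and none of the 13 lists drawn has all its genes called.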

How the data were processed

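Whole-kidney RNA of 9 mouse libraries in 3 groups was measured as raw counts of reads per gene, deposited by the authors as 1 table per library. Per the submitters' processing notes, HISAT2, featureCounts of Subread and DESeq2 were used with mm10. Tool versions, the annotation, the strand setting and the handling of multi-mapping reads are not given in the sources used here. Symbols, exons and coding sequences came from GENCODE M21, promoters from RefSeq; the coding ends of some members are not reported here.

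The table of bIRI replicate 2 was left out, which left 8 libraries. Counts were filtered with filterByExpr, scaled by TMM factors (0.830 to 1.37) and fitted with 1 mean per group by edgeR 4.0.16 in R 4.3.3 (glmQLFit, robust; 5 residual degrees of freedom; biological coefficient of variation 0.296). Tests were two-sided, with Benjamini-Hochberg adjustment over 17967 genes within each comparison and a threshold of 0.05. A count of 3 corresponds to 0.0646 to 0.0815 CPM. RPKM used merged exon length. The procedure was tested on simulated data.

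The members and gene lists were chosen with earlier results of these data known. All 10 tubulin genes are named. From each other list up to 4 called genes per comparison with the smallest adjusted p and a mean of at least 1 CPM in a group were eligible, lists of 5 or fewer genes in full, and single marker genes were named after their values were seen; the 5 genes most correlated with Tuba1b and with Tubb4b were taken among genes of at least 5 CPM on average. Alternatives were upper-quartile or RLE factors, DESeq2 1.42.0, scaling without mitochondrial and top genes, 2 other filters, the compared groups alone, the replicate number as a block, all 9 tables, offsets for length and GC content (5 spline degrees of freedom), each library left out, and the longest transcript as length.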

Additional observations from a re-analysis of the deposited data

How the results depend on the processing

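Each of the 30 fold changes of the tubulin genes (10 genes, 3 comparisons) was recomputed under 19 other settings. Of these 570 values, 511 kept their direction and their side of the threshold, 33 passed it only under the alternative, 12 no longer passed it, and 14 changed direction. The count called higher in bIRI against Sham was 5 to 9 over all settings and that in BHBNa_bIRI against Sham 8 to 10. Tuba1a, Tubb2a, Tubb2b and Tubb5 were called in bIRI against Sham in 19 of 19 settings, Tubb6 in 18, Tubb3 in 12, Tuba1b and Tuba1c in 6, and Tuba4a and Tubb4b in 2. The calls of Tuba4a were in opposite directions. In BHBNa_bIRI against Sham Tuba4a was called in 8 settings, Tubb4b in 16, Tuba1c in 18 and the others in 19.

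The count called lower in bIRI against Sham was 0 to 1 when a library was left out, and the 1 was Tuba4a without bIRI replicate 1. The count called higher in BHBNa_bIRI against bIRI was 0 to 8 when a library was left out, 8 without bIRI replicate 1, and it was 1 with DESeq2 and 2 with all 9 tables. The table of bIRI replicate 2 is a mean of the other bIRI libraries, which by construction lowers the spread of that group. With a library left out, log2 fold changes in bIRI against Sham ran from -0.198 to 1.996 in Tuba1b, from -0.331 to 2.224 in Tuba1c, from -0.628 to 0.603 in Tuba4a and from -0.268 to 1.261 in Tubb4b, each lowest without bIRI replicate 1 and highest without bIRI replicate 3. In BHBNa_bIRI against bIRI they ran from -0.282 to 2.26 in Tuba1c, from -0.477 to 0.608 in Tubb2a and from -0.041 to 1.475 in Tubb4b, each lowest without bIRI replicate 3 and highest without bIRI replicate 1, and from -0.072 to 0.184 in Tubb2b, in the opposite order. Tubb2b was at -0.148 with offsets for length and GC content, and the cause was not tested.

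Same-numbered libraries did not deviate together (correlations of -0.351 to 0.162 over 12404 genes), so the numbers are not taken as pairs. With the replicate number as a block, 6, 0 and 9 tubulin genes were called higher in the 3 comparisons, Tuba4a was at -0.031 in bIRI against Sham and Tubb2a at 0.034 in BHBNa_bIRI against bIRI. With the block and the length and GC offsets, Tubb2b was at -0.081 in that comparison. The block left 0 genes of all tested called in BHBNa_bIRI against bIRI, fitting the compared groups only left 1, and offsets for length and GC content left 2. Of 3078 counts of calls recomputed for the other lists, 2414 stayed within 1.5 times, 457 were lower and 207 higher.

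With the longest transcript as length, 14 of 30 family shares moved by more than the spread between libraries. Upper-quartile factors moved the median log2 fold change of all genes to 0.17 in bIRI against Sham and 0.13 in BHBNa_bIRI against Sham. With 2 bIRI libraries that differ, the bIRI group limits what can be called, and the depth limits Tubb3, with 0 to 9 counts in Sham.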
